A study of Rattus norvegicus with 9 samples.

Results

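Kidneys of the spontaneously hypertensive rat (SHR) were set against kidneys of both Dahl lines taken as a single group, the Dahl salt-sensitive line (Dahl S) and the Dahl salt-resistant line (Dahl R). The comparison used all 9 arrays of the series, 3 of SHR and 6 of Dahl (3 Dahl S and 3 Dahl R), chosen by the strain in their labels. It asks which transcripts sat at a like level in the Dahl lines and at another level in SHR. Total RNA from kidney was labelled with Cy3 and put on a one-colour Agilent array that carries probes for coding and long noncoding transcripts, with 1 array per sample.

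All 3 groups were male and 53 days old, were weaned at 30 days and were then kept on a low-salt diet (0.3%). No group carried a transgene, a deletion or a drug by its labels. Dahl S and Dahl R were bred apart from a common stock for a high and a low blood pressure response to salt, whereas SHR was bred separately for high blood pressure without added salt. The pooled contrast therefore compares strains that differ at many loci, and the labels give no blood pressure for these rats. The labels say that the rats were born on 1 day; they do not say that each array is a separate animal, and if some are not, the tests cover technical spread alone.

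The kidney filters plasma in the glomerulus and recovers most of the filtrate in the proximal tubule, where organic anions, bile acids and phosphate are also carried across the cell. The thick ascending limb, the distal convoluted tubule and the collecting duct then set the final salt, water and acid content of urine. In the collecting duct, principal cells take up sodium and water through the epithelial sodium channel and aquaporins, and intercalated cells move acid, base and ammonia.

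Levels are log2 signals relative to the 75th percentile of the same array, so a level of 0 lies at that percentile and levels of different probes are not compared. A probe was tested where it was well above background on at least 3 arrays, which left 16592 of 24684 probes, 11942 coding and 4650 noncoding. The arrays fell into 3 scans by the scan time in their headers. The first held the 3 Dahl S arrays and Dahl R 1, the second held Dahl R 2, Dahl R 3, SHR 1 and SHR 2, and the third held SHR 3 alone. Only Dahl R 2 and 3 therefore share a scan with SHR arrays, and Dahl S never does. SHR 3 stood apart: the median background around its spots was 88, with the others at 43 to 45, 43.1% of its probes were well above background against 60.1% to 70.3%, and 7.93% of its spots were marked as outliers against 1.49% to 2.62%. Marked spots were left out, so some SHR means below rest on SHR 1 and SHR 2. The lowest signal on SHR 3 was -4.80, against -9.38 to -7.94 on the other arrays, so a level near -4.80 on that array is its floor. The tissue label was checked against markers: 18 of 19 proximal tubule markers on the array and 10 of 10 thick ascending limb markers were well above background on all 9 arrays.

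In what follows the SHR and Dahl ranges given did not overlap unless stated, and n is 3 SHR and 6 Dahl arrays, or 2 SHR arrays where 2 SHR values are given. RT1-CE15, RT1-CE5, Lpl, Kcnj1, NM_001101017 and Ucp1 also rest on 2 SHR arrays, and MGC116197, Slc10a2, Slc22a6, NM_001101017 and Ucp1 on 5 Dahl arrays.

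Of the 16592 probes, 2746 (16.6%) differed between SHR and Dahl at a Benjamini-Hochberg adjusted p below 0.05 in limma, 1617 higher in SHR (9.75%) and 1129 lower (6.8%). The split depends on the background correction: 58.9% of these were higher, against 39.4% of the 597 that passed after normexp correction. Coding and noncoding probes passed at near shares, 16.4% of coding and 16.8% of noncoding. The class was read from the form of the probe name alone. Some probes counted as coding carry names of noncoding RefSeq models, such as XR_006686. Over all 11608 coding genes 9.67% were higher and 6.8% lower, and each list count below is to be read beside these shares. A count near them is no result about its list. Without SHR 3, 3497 of 16569 probes passed (21.1%), 1839 higher and 1658 lower. Of the 2746 probes, 2383 also passed without that array, 0 of them in the opposite direction. The median difference over all probes was 0.10 on the log2 scale, 0.04 without SHR 3 and 0.04 within the second scan.

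The Dahl lines lay close together for most of these probes, as they did for most tested probes. The pooled test favours such probes, since a difference between the Dahl lines adds to the spread it counts. Of the 2746, 2521 (91.8%) had Dahl S and Dahl R means within 0.5 log2 of each other (1.41-fold), against 86.7% of all tested probes. A set of 808 probes (4.87%) met this limit and had SHR at least 2-fold away, and it is called the 2-fold set here. It held 335 probes higher and 473 lower in SHR, of which 221 and 317 were coding and 114 and 156 noncoding. The 95% interval of the Dahl S minus Dahl R difference lay within 1 log2 for 660 of the 808, so for the remainder a 2-fold difference between the Dahl lines is not shown to be absent. The usable SHR arrays all lay outside the range of the Dahl arrays in 785 of the 808, against 25.9% of all tested probes; since the set was chosen on the same values, this is a description. Within the second scan, SHR 1 and SHR 2 lay on the same side of Dahl R 2 and 3 in 788 of the 788 probes with a value, by at least 2-fold in 610; these arrays were also used to choose the set, which all but fixes the sign. A further 146 close probes past the threshold had a difference between 0.9 and 1 log2, just outside the set, and 123 lay between 1 and 1.1, just inside. Of 19 coding genes with a probe in the set and several tested probes, 10 had the same call on all their probes. In 4 of the 19 a probe had the opposite sign. In 18 probes of the set the only usable SHR array was SHR 3, among them Bst2 and Krt18. Genes named from the gene lists need not be in this set. Besides the genes so marked below, Dahl S minus Dahl R was beyond 0.5 log2 for Il33 (-0.645), Ugt2a1 (-0.874) and Ucp1 (-0.603). It was also beyond that limit for Loxl2 (0.546), Hba-a3 (0.536), Rhbg (0.733) and Egr1 (0.585).

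**Figure D1:**
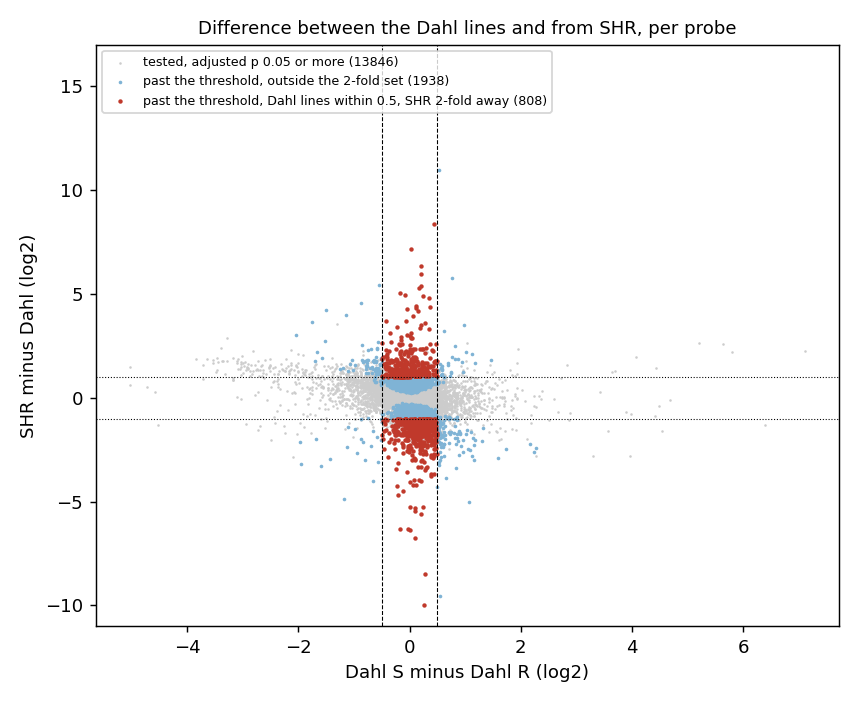
Each point is 1 of 16592 tested probes, with the Dahl S minus Dahl R difference (log2) on the horizontal axis and the SHR minus Dahl difference (log2) on the vertical axis; dashed lines mark 0.5 log2 and dotted lines 1 log2. The 808 probes of the 2-fold set (red) lie by rule in the narrow column in the middle, from -9.96 for RT1-Bb to 8.35 for NM_017272. Probes spread along the horizontal axis mostly did not pass, and the pooled test counts that spread against them.

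Among coding genes measured in all 3 strains, the largest excess in SHR was that of Dtx3l, a ubiquitin ligase that acts with the ADP-ribosyltransferase Parp9. Its level was 2.41, 2.43 and 2.68 in SHR 1, 2 and 3, and the Dahl arrays lay between -4.08 and -3.53 with a median of -3.88. The groups did not overlap, and SHR was 81.7-fold higher (log2 difference 6.35 ± 0.13, SE, n = 3 and 6, adjusted p = 3.43e-08). Parp9, whose gene lies next to Dtx3l in the opposite direction, had levels of 2.15 and 2.23 in SHR 1 and 2, inside the Dahl range of 2.09 to 2.35 (-0.03 ± 0.11, adjusted p = 0.862). The neighbours thus differed in whether they passed. The genes lie head to head on chromosome 11, with 713 bases between their promoter windows.

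The windows of Dtx3l and Parp9 are shown because only the former changed, and that of Ifit3 because it is an interferon-induced gene with a small change. Each runs from 250 bases before the annotated start to 50 after it (RefSeq, GRCr8), read 5′ to 3′ on the strand of the gene. They lie at chr11:78319975-78320274 on the plus strand, chr11:78318962-78319261 on the minus strand and chr1:241527076-241527375 on the plus strand. Capitals mark the motif GAAANNGAAA or its reverse complement TTTCNNTTTC, the core of the interferon-stimulated response element.
Dtx3l: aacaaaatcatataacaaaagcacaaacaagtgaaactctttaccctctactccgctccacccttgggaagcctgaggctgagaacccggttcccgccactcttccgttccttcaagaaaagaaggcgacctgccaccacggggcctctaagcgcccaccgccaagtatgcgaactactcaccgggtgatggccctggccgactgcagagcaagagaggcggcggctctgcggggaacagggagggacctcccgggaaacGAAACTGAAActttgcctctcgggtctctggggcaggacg
Parp9: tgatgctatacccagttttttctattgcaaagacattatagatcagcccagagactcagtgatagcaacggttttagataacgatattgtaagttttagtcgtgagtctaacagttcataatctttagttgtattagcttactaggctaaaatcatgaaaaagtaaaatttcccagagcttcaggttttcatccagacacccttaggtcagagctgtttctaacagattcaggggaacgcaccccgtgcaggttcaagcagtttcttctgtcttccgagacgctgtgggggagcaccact
Ifit3: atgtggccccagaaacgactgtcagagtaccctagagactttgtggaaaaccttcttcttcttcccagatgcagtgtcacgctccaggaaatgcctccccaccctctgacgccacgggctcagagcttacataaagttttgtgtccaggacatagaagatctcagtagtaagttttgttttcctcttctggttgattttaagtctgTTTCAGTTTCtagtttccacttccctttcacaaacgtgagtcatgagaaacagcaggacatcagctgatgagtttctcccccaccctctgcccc
The motif starts 11 bases after the annotated start of Dtx3l and 44 before that of Ifit3, and these letters are not in the Parp9 window. Of 33469 rat windows searched on both strands, 3.92% hold it, against 17 of the 26 interferon-induced genes that were tested and have a window (65.4%). The 3.92% counts windows, whereas the 65.4% counts genes with the motif in any of their windows. Among these 17 were genes higher in SHR (Dtx3l, Ifit3, Oas1i), genes counted as lower in SHR (Bst2, on 1 SHR array, Cxcl10, Ifi27, Isg20) and 10 that did not pass.

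Interferon-induced genes did not move as a group. Of 34 tested members, 4 were higher in SHR, 5 lower and 25 did not pass, with a median of -0.03. Over all 11608 coding genes, 9.67% were higher and 6.8% lower, with a median of 0.09. Ifit1, which binds foreign 5′ RNA ends, was well above background on all 3 SHR arrays at -0.70, -0.40 and 0.23 and on 0 of the 6 Dahl arrays, which read -7.80 to -6.97. A fold against such a group is given as a bound, with the dim side set no lower than the faintest signal well above background on its array. It was at least 64.0-fold higher in SHR (fitted difference 7.16 ± 0.25, adjusted p = 4.66e-07). Its relatives on the same list differed little: Ifit3 was higher by 0.53 ± 0.14 (adjusted p = 0.0338), and Ifit2 gave -0.01 ± 0.12 (adjusted p = 0.954). Lower in SHR were the chemokine Cxcl10 (-0.92 ± 0.20, adjusted p = 0.0152) and the ubiquitin-like modifier Isg15 (-0.70 ± 0.19, adjusted p = 0.0383). Bst2, which tethers budding virus, was at -1.34 on SHR 3, its only usable SHR array, and 0.04 to 0.51 on 3 Dahl arrays; it is among the 5 counted as lower, but 1 SHR array gives no spread of its own and no p is read from it.

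Antigen presentation genes included the largest single difference of the coding set. RT1-Bb, a class II histocompatibility chain, read -6.36, -6.79 and -3.22 on the SHR arrays and 4.20 to 4.71 in Dahl (-9.96 ± 0.67, adjusted p = 3.02e-05); it was well above background on 1 SHR array, and the other class II gene below Dahl was RT1-Db1 (-1.89 ± 0.19). RT1-Ba, the chain it pairs with, was at 5.52, 5.47 and 5.48 in SHR and 5.16 to 5.53 in Dahl, with the ranges overlapping (0.12 ± 0.10, adjusted p = 0.453). Of 22 class I genes of this complex 10 were higher and 3 lower in SHR, with a median of 0.53, and of 10 class II genes 0 were higher and 2 lower, with a median of 0.18. Class I genes with the largest excess were RT1-CE15 (2.90 ± 0.12) and RT1-CE5 (2.89 ± 0.16), and those below Dahl were RT1-O1 (-2.30 ± 0.13), RT1-CE2 (-1.75 ± 0.36) and RT1-CE10 (-1.38 ± 0.24). Another tested probe of RT1-CE5 gave 1.30 and did not pass. The genes of this complex are near copies of each other and their alleles differ between strains, so which member a probe reads in each strain is uncertain. Tap1, which carries peptides to class I molecules, was 1.91-fold higher (3.00, 2.82 and 2.84 in SHR against 1.86 to 2.08, adjusted p = 0.000221). The antigen presentation list, which holds Tap1 but not all of these RT1 genes, had 8 of 39 higher and 4 lower.

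Collecting duct markers were higher in SHR. Of 10 tested principal cell markers 6 were higher, 0 lower and 4 did not pass (median 0.61), and of 14 intercalated cell markers 8 were higher, 0 lower and 6 did not pass (median 0.64), beside 9.67% and 6.8% of all coding genes and their median of 0.09. Without SHR 3 the counts were 6 and 7 higher and 0 lower, beside 11.3% higher and 9.14% lower over all coding genes. Within the second scan 4 and 4 were higher and 0 lower, with medians of 0.51 and 0.59, beside 0.05 over all coding genes. In that scan 1014 of 16559 probes were higher. After normexp correction 3 and 2 were higher, with medians of 0.70 and 0.52, beside 0.04 over coding genes and 235 of 16592 probes higher. With the percentile over unmarked spots 3 and 4 were higher, with medians of 0.96 and 0.97, beside 0.39 and 676 of 16592. With quantile normalization 6 and 8 were higher, with medians of 0.58 and 0.60, beside -0.01 and 1318 of 16592. Relative to the median of all coding genes both lists lay above 0 in each of 7 settings. The excess was spread over cells with different work. Scnn1b, the β chain of the epithelial sodium channel, was at 1.65, 1.75 and 2.42 in SHR and 0.17 to 0.52 in Dahl with a median of 0.41. The groups were apart, and SHR was 2.93-fold higher (1.55 ± 0.17, adjusted p = 0.000454). Scnn1a, the α chain, was at -0.08, -0.01 and 0.93 against -0.91 to -0.41 (1.05 ± 0.23, adjusted p = 0.0146), with SHR 3 the highest array for both chains; without it the difference of Scnn1a was 0.72 (adjusted p = 0.00858).

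The water channel Aqp4 was at 3.86 and 4.33 on its 2 usable SHR arrays against 2.40 to 3.06 in Dahl (1.39 ± 0.22, adjusted p = 0.00487). Another tested probe of Aqp4 gave 0.83 and did not pass. Aqp2, the channel that vasopressin moves to the membrane, was at 6.74 to 7.01 in SHR against 6.09 to 6.52 (0.62 ± 0.13, adjusted p = 0.0129). Aqp3 (0.06) and the vasopressin receptor Avpr2 (0.23) did not pass. Among intercalated cell genes, the anion exchanger Slc26a4 was at 4.89 and 4.63 in SHR 1 and 2 against 3.54 to 4.02 (0.95 ± 0.16, adjusted p = 0.00669), and the ammonia channel Rhcg at 2.03 and 1.89 against 0.72 to 1.42 (0.86 ± 0.18, adjusted p = 0.0167). Foxi1, a transcription factor of these cells, was 0.81 higher, and its call was lost without SHR 3 (0.61, adjusted p = 0.0782), as was that of the ammonia channel Rhbg (0.90, adjusted p = 0.0556). For the anion exchanger Slc4a9, SHR 1 and 2 lay above and SHR 3 below all Dahl arrays. The mean over the 7 principal cell markers usable on all arrays was 1.00 to 1.38 in SHR and 0.28 to 0.62 in Dahl, and over 10 intercalated cell markers 0.57 to 0.83 and -0.10 to 0.29. In bulk kidney RNA, fewer or more cells of a type and less or more RNA per cell cannot be told apart.

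**Figure D2:**
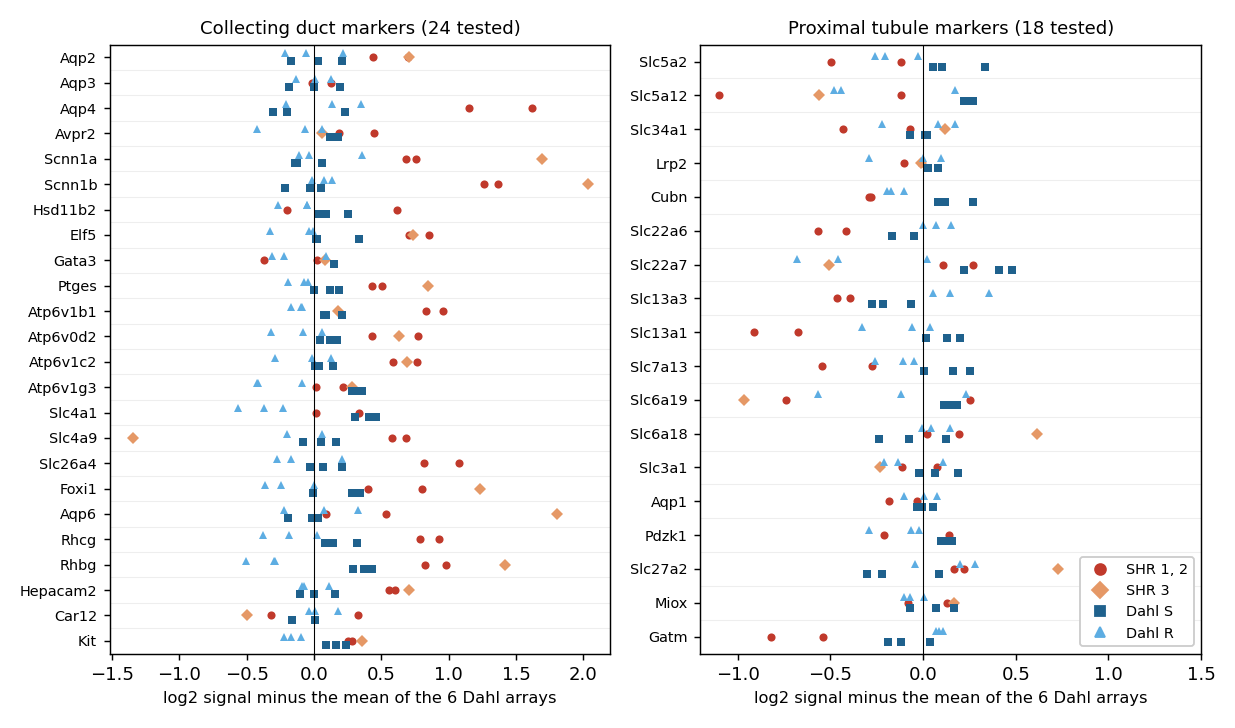
Each row is a marker gene and each point 1 array, as log2 signal minus the mean of the 6 Dahl arrays; SHR 1 and 2 are red circles, SHR 3 an orange diamond, Dahl S dark squares and Dahl R light triangles. SHR arrays lie to the right for most of the 24 collecting duct markers, of which 14 were higher, whereas 0 of the 18 proximal tubule markers were higher.

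Of 18 proximal tubule markers 0 were higher and 3 lower, with a median of -0.21; 0 passed after normexp correction. The sulphate transporter Slc13a1 was at 2.96 and 2.72 in SHR 1 and 2 against 3.30 to 3.83 (-0.79 ± 0.15, adjusted p = 0.0120), and Gatm, of creatine synthesis, at 6.20 and 5.92 against 6.55 to 6.85 (-0.68 ± 0.13, adjusted p = 0.00978). The organic anion transporter Slc22a6 was lower by 0.49 ± 0.12 on SHR 1 and 2 (-0.49, adjusted p = 0.0354) but turned to 0.57 when the marked SHR 3 spot was kept. The mean over the 9 proximal markers usable on all arrays overlapped, at 4.24 to 4.43 in SHR and 4.22 to 4.57 in Dahl. In the thick ascending limb 2 of 10 were higher and 1 lower: Cldn16, a claudin of the magnesium route, was at -0.13, -0.31 and -0.69 against 0.85 to 1.09 (-1.30 ± 0.13, adjusted p = 0.000230), while the potassium channel Kcnj1 was higher (0.51 ± 0.10, adjusted p = 0.0155). In the distal convoluted tubule 2 of 6 were higher: the calcium channel Trpv5, at -2.37, -2.14 and -2.69 against -5.03 to -4.25 (2.34 ± 0.18, adjusted p = 7.05e-05), and the calcium buffer Calb1 (0.60 ± 0.14, adjusted p = 0.0212). Without SHR 3 the difference of Trpv5 was 2.49. The thiazide-sensitive cotransporter Slc12a3 gave 0.25 and did not pass.

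Of 30 tested sodium and chloride transport genes 10 were higher in SHR and 1 lower, beside 9.67% and 6.8% of all coding genes. The median was 0.23, and 5 of the 10 also stand in the distal tubule and collecting duct marker lists and are no separate evidence. After normexp correction 2 were higher. Outside those lists, Nr3c2, the aldosterone receptor, was 1.32-fold higher (0.40 ± 0.08, adjusted p = 0.0112). The 1 lower gene was the bicarbonate cotransporter Slc4a4, at -0.95, -1.81 and -0.05 against 1.49 to 2.71 (-2.86 ± 0.38, adjusted p = 0.00139). The Dahl means of Slc4a4 differed by 0.57, just over the closeness limit. Sgk1, an aldosterone-induced kinase, gave -0.69 and did not pass.

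In the renin-angiotensin system 2 of 16 genes were higher, 4 lower and 10 did not pass, beside 9.67% and 6.8% of all coding genes. Agt, the precursor of all angiotensins, was at 1.02, 1.04 and 0.42 in SHR and 2.12 to 2.31 in Dahl, with no overlap, and 2.64-fold lower (-1.40 ± 0.14, adjusted p = 0.000336); the Dahl lines differed by 0.01. Agtrap, which binds the angiotensin receptor and lowers its signal, was at 1.38, 0.78 and 0.73 against 1.98 to 2.24 (-1.15 ± 0.15, adjusted p = 0.00111). Mas1, a receptor of angiotensin fragments, was higher (-3.26, -2.79 and -2.11 against -3.90 to -3.68, difference 1.06 ± 0.21, adjusted p = 0.0101). The receptor Agtr1a gave 0.23 and did not pass. Prcp, which trims angiotensins, was lower by 2.13 (-2.13, adjusted p = 0.0489), but the Dahl lines differed for it by 1.98 and without SHR 3 it did not pass (adjusted p = 0.124).

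Genes of lipid mediators and bile acids held several of the largest differences. Of 31 arachidonic acid genes 7 were higher and 2 lower, beside 9.67% and 6.8% of all coding genes. Ephx2, the soluble epoxide hydrolase that inactivates epoxides of arachidonic acid, was at 2.68 and 2.84 in SHR 1 and 2 and -1.31 to -1.05 in Dahl (3.93 ± 0.11, adjusted p = 5.13e-07), with a Dahl S minus Dahl R difference of 0.06. Cyp2j4, a cytochrome P450 of the family that makes such epoxides, was at -0.49, -0.22 and -1.05 against -3.73 to -2.83 (2.66 ± 0.25, adjusted p = 0.000221), with Dahl lines 0.56 apart. Hpgds, a prostaglandin D synthase, was 3.73-fold higher (1.90 ± 0.19, adjusted p = 0.000277), the cyclooxygenase Ptgs1 1.67-fold (0.74 ± 0.12, adjusted p = 0.00404) and the prostaglandin E synthase Ptges 1.51-fold (0.60 ± 0.12, adjusted p = 0.0119). Ptgs2, the inducible cyclooxygenase, gave -0.06 and did not pass.

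Of 19 bile acid and cholesterol genes 6 were higher and 3 lower, beside 9.67% and 6.8% of all coding genes. The members that moved have different roles. The bile acid receptor Nr1h4 was at 0.77, 0.80 and 1.27 in SHR and -5.31 to -4.06 in Dahl (5.77 ± 0.30, adjusted p = 7.46e-06), and Cyp8b1, which hydroxylates bile acids, at 3.65 and 3.65 against -2.09 to -1.18 (5.43 ± 0.28, adjusted p = 1.58e-05); their Dahl means differed by 0.76 and -0.55, outside the closeness limit. The cholesterol exporter Abca1 was 2.22-fold higher (1.15 ± 0.12, adjusted p = 0.000300). Slc10a2, the sodium-coupled bile acid transporter, went the other way, at -3.64, -3.65 and -4.67 against 0.07 to 0.44 (-4.24 ± 0.24, adjusted p = 3.05e-05), with SHR 3 near its floor. Slc51a, part of the basal bile acid exporter, was lower by 0.86 (-0.86, adjusted p = 0.0226), a call lost without SHR 3 (adjusted p = 0.0569). The branched-chain oxidase Acox2, which also shortens bile acid precursors in peroxisomes, was at 4.27, 4.29 and 4.46 against 1.27 to 1.54 (3.00 ± 0.09, adjusted p = 3.10e-07).

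Of 35 fatty acid oxidation and ketone body genes 3 were higher and 2 lower, with a median of 0.10, near that of all coding genes. Cd36, the fatty acid translocase, was at -1.40, -0.86 and -0.55 in SHR and 1.35 to 1.74 in Dahl, 5.51-fold lower (-2.46 ± 0.18, adjusted p = 4.84e-05), and the Dahl lines differed by 0.00. Of 19 pairs of neighbouring genes in the 2-fold set, 10 moved the same way, among them Cd36 and Gnat3, and 9 in opposite directions, among them Sorcs2 and Psapl1. Ehhadh, of peroxisomal oxidation, was at 1.75 and 2.15 in SHR 1 and 2 against 2.56 to 3.26 (adjusted p = 0.0134), and the muscle-type carnitine transferase Cpt1b was 1.79-fold higher (0.84 ± 0.13, adjusted p = 0.00267). Mitochondrial respiratory chain genes differed little, with 1 of 65 higher and 4 lower, led by Ndufb2, a subunit of complex I, at 4.03 and 3.69 against 5.73 to 5.91 (-1.93 ± 0.11, adjusted p = 3.31e-05).

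Dio1, the deiodinase that turns thyroxine into its active form, was at -1.55, -1.60 and -0.05 in SHR and 5.09 to 5.39 in Dahl, 79.0-fold lower (-6.30 ± 0.31, adjusted p = 4.88e-06). SHR 3 was the highest SHR array, and without it the difference was -6.81 (adjusted p = 1.61e-08). Of the 17 thyroid hormone and retinoid genes 3 were higher and 5 lower. Klf9, a thyroid-responsive transcription factor, was at -1.38, -1.64 and -2.91 against 0.09 to 1.02 (-2.46 ± 0.33, adjusted p = 0.00151), and the receptor Thra at -2.73, -3.79 and -4.53 against -0.95 to 0.03 (-3.09 ± 0.37, adjusted p = 0.000765, Dahl lines 0.52 apart). Thrsp, also a thyroid-responsive gene, was higher, at 4.48 and 4.46 against 2.40 to 3.46 (1.51 ± 0.28, adjusted p = 0.00971).

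Of 28 organic ion and urate transport genes 2 were higher and 4 lower, beside 9.67% and 6.8% of all coding genes. Slc17a3, a urate and organic anion transporter, was at 0.45, 0.28 and 1.02 in SHR and 4.96 to 5.21 in Dahl, 22.5-fold lower (-4.49 ± 0.15, adjusted p = 4.66e-07). Slc17a1, its relative on the same list, gave -0.24 ± 0.09 and did not pass (adjusted p = 0.101). Abcc1, an exporter of conjugates, was lower (-1.21 ± 0.25, adjusted p = 0.0115), and Slco2a1, which takes up prostaglandins, was higher (1.18 ± 0.22, adjusted p = 0.00735). Of 17 glucuronosyl- and sulfotransferases 1 was higher and 4 lower, with a median of -0.31: Ugt2b7 was 7.09-fold lower (-2.83 ± 0.30, adjusted p = 0.000402) and Sult1c2 3.26-fold lower (-1.70 ± 0.11, adjusted p = 1.89e-05), while Ugt2a1 was higher (4.57 ± 0.31, adjusted p = 3.31e-05), well above background on all 3 SHR arrays and on 1 Dahl array.

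The largest differences among coding genes of the 2-fold set with signal well above background on 2 or more arrays of each strain were drawn by array. After Dtx3l, the genes higher in SHR included Stbd1, which links glycogen to membranes, at 0.91, 1.09 and 0.68 against -4.67 to -4.35 (5.39 ± 0.12, adjusted p = 3.63e-08). The Dahl range of Stbd1 spans less than 1 log2. The transcript NM_012645, named as in the files, was at 4.01 and 3.62 against -2.36 to -1.91 (5.94 ± 0.16, adjusted p = 4.66e-07), and NM_001101017 differed by 4.17 ± 0.15. Dhx40, a DEAH-box helicase, was 10.6-fold higher (3.41 ± 0.11), the serpin Serpinb12 10.1-fold (3.33 ± 0.17) and the cilium protein Cfap126 8.59-fold (3.10 ± 0.13).

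Neurofilament chains moved apart. The heavy chain Nefh was at 0.65, 0.67 and 1.07 in SHR and -3.16 to -2.49 in Dahl (3.62 ± 0.16, adjusted p = 2.29e-06). The medium chain Nefm was at -2.68, -2.62 and -2.76 in SHR and 0.33 to 1.77 in Dahl (-3.68 ± 0.27, adjusted p = 4.92e-05), well above background on 2 SHR arrays. Lower in SHR were also Psmd8, a proteasome subunit (-5.27 ± 0.31), Or2n1e, an olfactory receptor (-5.30 ± 0.18), Fgr, a kinase of myeloid cells (-4.08 ± 0.18), and Rab8b, a GTPase of vesicle traffic (-4.03 ± 0.17), each well above background on 2 of 3 SHR arrays. Ros1, a receptor tyrosine kinase, was well above background everywhere, at -1.95, -2.10 and -1.46 against 1.64 to 2.19 (13.4-fold lower, -3.75 ± 0.18, adjusted p = 3.75e-06). Gda, which deaminates guanine, was at -2.22, -2.59 and -3.74 against 0.54 to 1.32 (-3.68 ± 0.31, adjusted p = 0.000115). Without SHR 3, where it was dim, the difference of Gda was -3.23. NM_001127530 (-5.60 ± 0.12) and MGC116197 (-4.67 ± 0.16) complete the list.

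**Figure D3:**
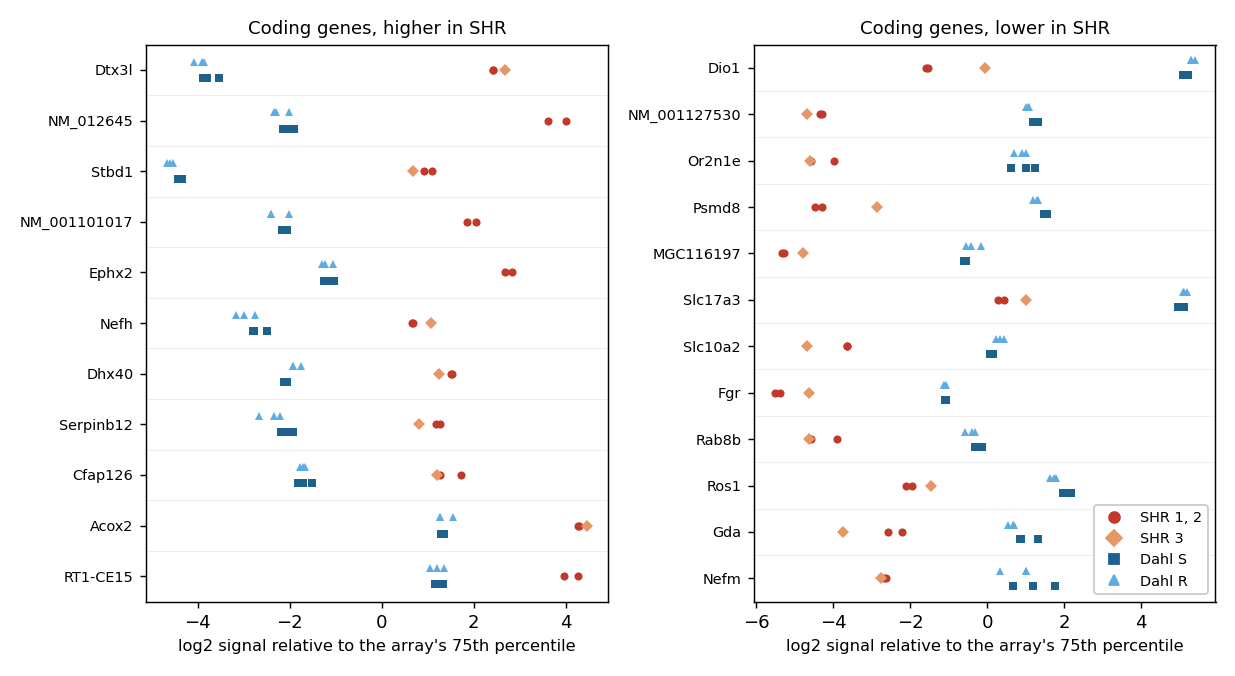
Each array's log2 signal, scaled to its own 75th percentile, for coding genes among the highest (left) and lowest (right) in SHR against Dahl within the 2-fold set; each point is 1 array. The rows were chosen for close Dahl S and Dahl R means and a large SHR difference, which sets the pattern seen. Differences run from 6.35 for Dtx3l to 2.90 for RT1-CE15 on the left and from -6.30 for Dio1 to -3.68 for Nefm on the right.

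Some coding genes were well above background on 1 side only. NM_017272 was at least 90.7-fold higher in SHR, where it read 0.47, 0.28 and -0.11, and it was well above background on 0 of 6 Dahl arrays. Zfp37, a zinc finger gene, was at least 77.7-fold lower: Dahl arrays read 0.73 to 1.24, and SHR arrays -8.76, -8.84 and -4.79, with SHR 3 at its floor; without that array the bound was 205-fold. Igfals, Lrguk and NM_001128188 were well above background on all Dahl arrays and no SHR array, with bounds of 2.73-, 2.30- and 2.27-fold, or 7.20-, 6.05- and 5.99-fold without SHR 3. Their SHR readings are not well above background, so the adjusted p of 0.0445, 0.0234 and 0.0263 rest on values that have only a bound. Leaving out SHR 1 or SHR 2 ended the calls of these last 3 genes, and for Igfals SHR 3 lay inside the Dahl range.

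Noncoding probes gave differences as large as those of coding genes. XR_007560 was at 4.36 and 4.09 in SHR 1 and 2 against -1.15 to -0.89 in Dahl (5.27 ± 0.12, adjusted p = 3.10e-07). BC091258 was at 1.67, 1.99 and 1.55 against -3.41 to -2.97 (4.95 ± 0.13, adjusted p = 1.52e-07), and XR_009394 at 5.06 and 4.84 against 0.58 to 0.81 (4.30 ± 0.11, adjusted p = 3.62e-07). Gapdh-ps1, a pseudogene copy of a glycolytic enzyme, was 21.1-fold higher (4.40 ± 0.25), and its probe could read near copies. L11340 (3.52 ± 0.20) and XR_007793 (3.14 ± 0.25) followed, and BC088860, well above background on no Dahl array, was at least 15.1-fold higher, a bound that fell to 8.37-fold without SHR 3, its brightest array (-0.66 against -3.11 and -3.34). All Dahl ranges stayed below all SHR values for these 7, which were picked for the size of their difference.

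Among noncoding probes well above background on at least 2 arrays of each strain, the lowest in the 2-fold set were MRuc008qku, at -4.25, -4.57 and -4.53 against 0.91 to 1.17 (-5.45 ± 0.10, adjusted p = 3.43e-08), XR_008432 (-4.21 ± 0.21), XR_009077 (-4.21 ± 0.11), MRAK018017 (-3.38 ± 0.42), S66184 (-3.08 ± 0.18) and XR_006867 (-3.04 ± 0.11). BC105611, X83579 and MRAK134201 were well above background on no SHR array, with bounds of 34.1-, 23.8- and 22.0-fold lower, or 89.9-, 62.6- and 57.9-fold without SHR 3. By the name given to a probe, the share past the threshold was 21.3% of 732 BC probes, 118 higher and 38 lower, and 18.4% of 1830 MRAK probes, 190 higher and 146 lower. It was 15.9% of 339 MRuc probes, 12.1% of 239 ultraconserved (uc.) probes, 7 higher and 22 lower, and 10.8% of 802 XR probes, beside 16.8% of all noncoding probes. Whether these shares differ beyond their probes' signal was not tested.

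Of 32 tested genes that rat genetics has linked to blood pressure 5 were higher and 5 lower, beside 9.67% and 6.8% of coding genes. Besides Ephx2 and Cd36, the endothelin receptor Ednrb was 2.30-fold higher (1.20 ± 0.21, adjusted p = 0.00506) and the natriuretic peptide receptor Npr1 1.51-fold (0.59 ± 0.11, adjusted p = 0.00934). Lower were Endog, a mitochondrial nuclease, at -2.03, -2.06 and -2.33 against -0.06 to 0.15 (-2.17 ± 0.09, adjusted p = 2.29e-06), Sorcs2, a sorting receptor, at -0.09, -0.07 and 0.25 against 1.86 to 2.22 (-1.95 ± 0.12, adjusted p = 1.57e-05), Nr2f2 (-1.60 ± 0.26, adjusted p = 0.00424) and Cybb, the catalytic part of the phagocyte oxidase (-1.34 ± 0.38, adjusted p = 0.0446). Without SHR 3 the difference of Cybb shrank to -0.73.

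Of 14 clock genes 3 were higher and 2 lower, beside 0 and 0 within the second scan and 0 and 1 after normexp correction. Per3 was 1.51 ± 0.32 higher (adjusted p = 0.0135) and Bmal1 lower by 0.97 (-0.97 ± 0.26, adjusted p = 0.0329); the Dahl means differed for them by -0.77 and 0.73. Dbp, a clock output, was higher by 1.39, but the Dahl lines differed for it by -1.25 and the call was lost without SHR 3 (adjusted p = 0.0955). The labels give no hour of sampling. Of 21 immediate early and heat shock genes 4 were higher and 1 lower, but 0 were higher with quantile normalization, normexp correction or the authors' values; the largest difference was that of Egr1 (1.37 ± 0.36, adjusted p = 0.0327), at -2.27, -2.22 and -3.54 against -4.80 to -3.51, and SHR 3 lay inside the Dahl range.

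Of 31 injury genes 2 were higher and 3 lower, with a median of -0.26. The alarmin Il33 was at 0.71 and 0.99 against 4.41 to 5.32 (-4.03 ± 0.27, adjusted p = 7.05e-05), and the keratin Krt19 was 1.87-fold higher (0.90 ± 0.14, adjusted p = 0.00348). Krt18, counted among the lower, has a value of -1.12 that rests on SHR 3 alone and turned to 0.10 when marked spots of SHR 1 and 2 were kept, so no p is read from it. Havcr1, a tubule injury marker, did not pass (-2.80, adjusted p = 0.0906), and Dahl S and Dahl R differed for it by 3.30. Of 28 matrix genes 1 was higher and 5 lower: the protease Mmp14 was 2.56-fold lower (-1.36 ± 0.23, adjusted p = 0.00524), Loxl2, which cross-links collagen, 4.73-fold lower (-2.24 ± 0.30, adjusted p = 0.00143), and Postn, a matrix protein of activated fibroblasts, 2.60-fold higher (1.38 ± 0.29, adjusted p = 0.0129).

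Of 43 glutathione and antioxidant genes 3 were higher and 6 lower, with a median of -0.08: Gstt2, a glutathione transferase, was at 2.13, 2.21 and 0.75 against 3.19 to 3.76 (-1.78 ± 0.31, adjusted p = 0.00552), and Gstm2 was higher (0.73 ± 0.17, adjusted p = 0.0205). Of 30 amino acid transporters 2 were higher and 3 lower. The glutamate transporter Slc1a1 was at 0.05, 0.08 and 0.02 against 1.37 to 1.98 (-1.58 ± 0.14, adjusted p = 0.000143), and Slc43a1 was 2.00-fold higher (1.00 ± 0.19, adjusted p = 0.00759). Of 11 genes of the EGF family 1 was higher, the ligand Areg, at 1.54, 1.54 and 1.27 against -3.88 to -1.75 (4.23 ± 0.48, adjusted p = 0.000584), for which the Dahl lines differed by -1.51.

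Markers of cells other than tubule epithelium are given beside the 9.67% of coding genes higher and 6.8% lower. Of 21 macrophage and leukocyte markers 0 were higher and 3 lower (median -0.30). The count lower was 5 without SHR 3 and 6 with quantile normalization. It was 2 after normexp correction and 0 with the percentile over unmarked spots. Within the second scan 1 was higher and 4 lower. The macrophage receptor Mrc1 was at -0.79, -0.77 and -0.68 against 0.04 to 0.85 (-1.10 ± 0.16, adjusted p = 0.00252) and the signalling adaptor Tyrobp at 3.18, 3.00 and 3.16 against 3.67 to 3.95 (-0.70 ± 0.09, adjusted p = 0.00119). The log2 of the summed level of 17 such markers was 5.53 to 5.88 in SHR and 5.92 to 6.22 in Dahl. Their mean log2 level overlapped, at -1.08 to -0.51 in SHR and -0.58 to -0.26 in Dahl. On the list 18 of 21 did not pass. Fgr, Cybb and Cxcl10, also lower, are not on this list and add nothing to its count. Of 10 fat cell markers 3 were higher: Lpl (1.76 ± 0.26, adjusted p = 0.00360), the brown fat protein Ucp1 (1.75 ± 0.33, adjusted p = 0.0142) and the receptor Adrb3 (1.53 ± 0.37, adjusted p = 0.0236). The summed level of 6 fat markers overlapped, at 5.92 to 6.81 in SHR and 5.75 to 7.32 in Dahl. Thrsp and Cpt1b, also higher, are not on the fat cell list and add nothing to its count.

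Of 12 red cell markers 1 was higher and 2 lower, among them Hba-a3, a globin chain with near copies (adjusted p = 0.000189). Hba-a3 was well above background on 0 SHR arrays and 6 Dahl arrays and at least 158-fold lower, or 415-fold without SHR 3. The log2 of the summed level of 10 red cell markers overlapped, at 9.06 to 9.34 in SHR and 9.22 to 9.85 in Dahl. Of 8 adrenal markers 1 was lower, Hsd3b1 (-1.32 ± 0.34, adjusted p = 0.0282), and Cyp21a1 gave 0.06. Of 12 podocyte markers 2 were higher and 2 lower, led by the phosphatase Ptpro, at -0.88, -0.95 and 1.65 against 2.10 to 2.40 (-2.28 ± 0.51, adjusted p = 0.0168), with SHR 3 far above the other SHR arrays. Of 8 endothelial markers 2 were higher, Emcn (0.62 ± 0.11, adjusted p = 0.00530) and Tek (0.47 ± 0.11, adjusted p = 0.0206), and of 11 fibroblast and mural markers 1, Postn. After normexp correction 0 podocyte, endothelial or adrenal markers passed. The part of these cells in the differences above was not tested.

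**Figure D4:**
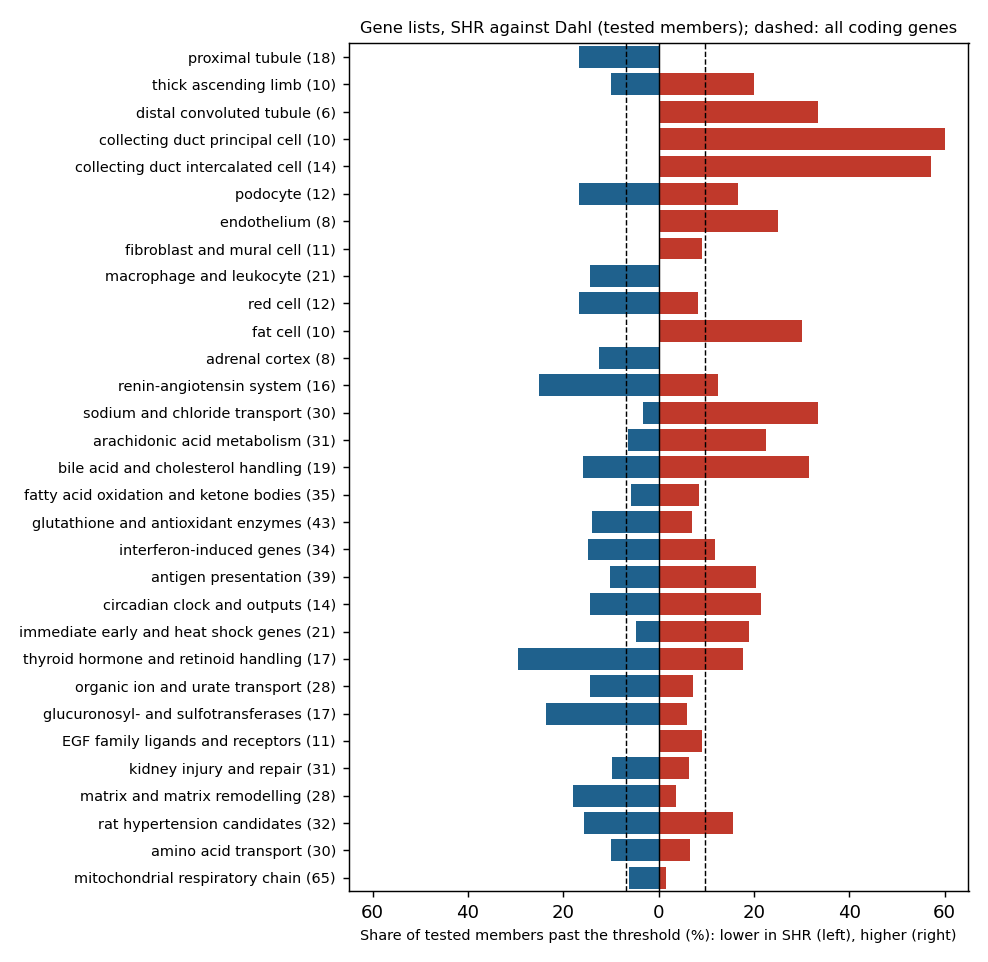
Share of tested members past the threshold for 31 gene lists, higher in SHR to the right and lower to the left, in percent; the number tested stands after each name and dashed lines mark 9.67% and 6.8% of all coding genes. The collecting duct lists, with 6 of 10 and 8 of 14 members higher, extend farthest to the right.

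Since the lines were pooled, each was also set against the same 3 SHR arrays, so these values share them. SHR differed from Dahl S in 2605 probes and from Dahl R in 2165, and 650 of the 808 probes passed in each. Slc17a3 differed by -4.43 from Dahl S and -4.55 from Dahl R, Agt by -1.40 and -1.40, Cd36 by -2.46 and -2.46, and Scnn1b by 1.61 and 1.49. Dahl S and Dahl R themselves differed in 233 probes (1.40%).

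Of the 46 coding and noncoding genes named from the 2-fold set, 46 passed without SHR 3, beside 21.1% of all probes. SHR and Dahl arrays were apart in 45, beside 25.9% of all tested probes. They were picked for large differences on the same values, so these counts are a description. For Zfp37 and RT1-Bb, both dim in SHR, the difference widened without SHR 3, which reads no lower than its floor: Zfp37 went from -8.48 to -9.82 and RT1-Bb from -9.96 to -11.07. Of the 808 probes, 761 passed without SHR 3. Of the 144 genes named by rule, 139 were past the threshold, and several of these lost their call when 1 array was left out. The calls of genes outside these 144, such as Isg15, Ifit3 and Cybb, were set beside a refit without SHR 3 only. Without SHR 1, Ehhadh (adjusted p = 0.0734) and Kcnj1 (0.0740) did not pass. Without SHR 2, Calb1 (0.0656), Gatm (0.0645), Slc13a1 (0.0748), Gstm2 (0.0650) and Ucp1 (0.0777) did not, and Rhcg and Ptpro failed without either (0.0522 to 0.0730 over both). Adrb3 failed without SHR 2 (0.0793) or SHR 3 (0.0582). Lrguk also failed without Dahl R 1 (0.0512). Slc22a6 and Foxi1 failed without 6 of the 9 arrays, Prcp and Egr1 without 7, Igfals and Dbp without 8, and Bmal1, Hsd3b1 and NM_001128188 without 5, with adjusted p between 0.0503 and 0.143. Hsd3b1 moved from -1.32 to -0.80 without SHR 1, and Igfals from -2.64 to -1.62 without SHR 2. With scan as a fixed block 13 genes named above lost their call, at adjusted p of 0.0514 for Adrb3 to 0.400 for Dbp: also Bmal1, Calb1, Cxcl10, Foxi1, Hsd3b1, Per3, Postn, Prcp, Scnn1a, Tek and Ucp1. Within the second scan, which holds 2 arrays of each side, Agtrap (0.0815), Cpt1b (0.0688), Emcn (0.0565) and Igfals (0.0558) did not pass either. Nor did Slc13a1 (0.103), Slc22a6 (0.0527) and Slc26a4 (0.0661) pass there.

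A change of sequence between strains under a probe can alter its signal, and the files hold no probe sequences, so this was not tested.

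**Figure D5:**
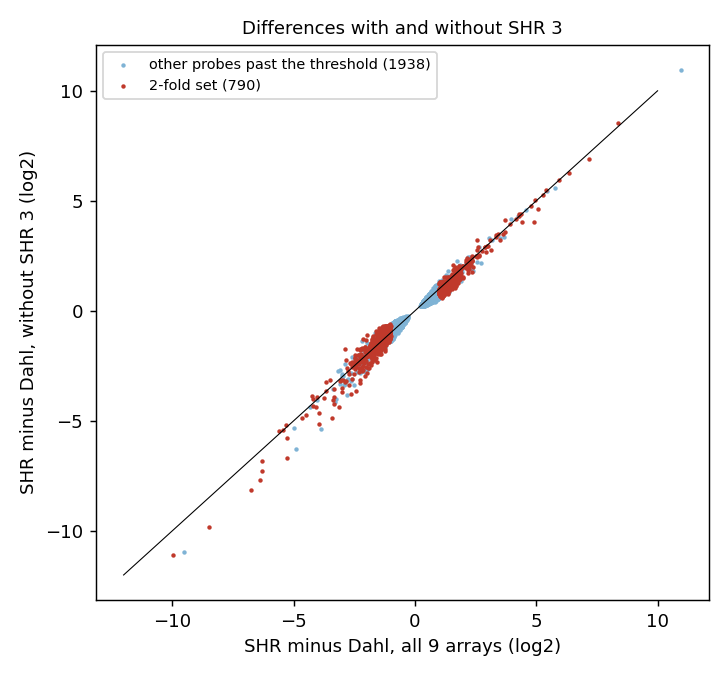
SHR minus Dahl difference (log2) from all 9 arrays on the horizontal axis and without SHR 3 on the vertical axis, for probes past the threshold that keep a value; the line marks equal values. The 790 probes of the 2-fold set (red) stay on their side of 0, and the most negative lie below the line, as RT1-Bb at -9.96 and -11.07.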

How the data were processed

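Kidney RNA was read on 9 one-colour arrays. The scanner output came from Agilent Feature Extraction 10.5.1.1, per the submitters' processing notes. Per the file headers, the deposited processed signals are intensities after background subtraction and detrending, not scaled between arrays, on a grid of build rn4; the deposited median signals are uncorrected intensities. A second deposited table was read as log2 values, since its columns tracked the scanner log2 signals (r of 0.974 to 1.00, column medians of 9.63 to 9.64); its normalization and filter are not stated, and it served as an alternative.

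The log2 processed signal of the 42136 non-control spots was set relative to each array's 75th percentile, spots marked as outliers were dropped, and spots of a probe were averaged. Testing required the flag for signal well above background in a share of 0.5 or more of a probe's spots, on 3 or more arrays, and a usable spot in every strain. Coding genes (11608) were represented by their brightest probe; 11183 of 11942 tested coding probes matched a RefSeq symbol (GRCr8), and the rest keep the name in the file. SHR and Dahl were compared with limma 3.58.1 in R 4.3.3 (lmFit, eBayes), with Benjamini-Hochberg adjustment across the tested probes at 0.05. Dahl S minus Dahl R came from a fit with 3 strains. Errors are SE unless stated.

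Named genes were the 12 highest and 12 lowest measured coding genes of the 2-fold set and up to 5 bounded ones in each direction. Noncoding probes were taken likewise, with 6 measured and up to 3 bounded each way. The 4 largest called members of each list were added, or its 2 brightest members where fewer than 2 passed. These 144 genes were checked with single arrays left out, by scan and for outlying arrays. Other members behind a count of 5 or fewer, such as Isg15, Ifit3 and Cybb, could also be named. Only the refit without SHR 3 was read for those. Genes named beside them, such as Parp9, Ifit2 and Havcr1, were picked after their values were seen. Some named genes are not reported here. The comparison and the gene lists were chosen with earlier results of these data known.

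Same-numbered arrays were not paired. The normexp alternative used the median signal, since the planned mean signal was not in the files used here. The number of arrays, 3 and 6, limits the precision.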

Additional observations from a re-analysis of the deposited data

Results flagged for a closer look

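Of 144 named results, 8 had a Dahl array far from the other 5, where chance alone flags about 1 in 20 groups. In 7 of the 8 that array was Dahl S 1. It was the highest Dahl array for Errfi1 (5.27, next 4.64), S66184 (0.56, next -0.01), Mmp14 (1.90, next 1.53), Abca1 (-2.42, next -2.73), X83579 (-0.51, next -0.68), Cldn16 (1.09, next 0.94) and Ndufb2 (5.91, next 5.79). For Acox2 it was Dahl R 2 (1.54, next 1.36). Errfi1, a feedback inhibitor of the EGF receptor, did not pass between SHR and Dahl. Dahl S 1 had the lowest share of probes well above background after SHR 3, at 60.1%, and the highest share of outlier spots after it, at 2.62%; their part in these values was not tested.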

How the results depend on the processing

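The 2746 probes past the threshold became 597 after normexp background correction (39.4% higher in SHR, against 58.9%), 1023 with the percentile taken over unmarked spots, which moved the median over all probes to 0.42, and 1777 with no filter on dim probes (median 0.34); quantile normalization and the authors' values moved that median from 0.10 to -0.02 and -0.01. The 808 probes of the 2-fold set became 346 after normexp, 369 where probes had to be well above background on all 9 arrays, and 519 with the Dahl lines within 0.25 log2. Leaving out 1 array at a time gave 1925 to 3497 probes and 687 to 1060 in the 2-fold set. In number the other settings stayed within 1.5 times, though not all calls were shared (1637 of the 2746 with scan as a fixed block, 1299 within the second scan): 3 strains as groups (3006 and 775), quantile normalization (2651 and 837), the authors' values (2429 and 799), outlier spots kept (2632 and 783), array weights (3957 and 891), scan as a fixed (2282 and 762) or random block (2554 and 765), and SHR 1 and 2 against Dahl R 2 and 3 within the second scan (2071 and 697). Same-numbered arrays of different strains had correlations of deviations from -0.16 to 0.06, so the number pairs nothing; with the replicate block 2091 and 756 passed. Of 46 genes named from the 2-fold set, 40 passed after normexp and 43 or more under each other setting that kept them all; requiring signal on all 9 arrays left 21. Reversed values were Krt18 (0.098 with outlier spots kept, 0.097 with the authors' values), Slc22a6 (0.569 and 0.557) and the uncalled Cyp21a1 (-0.212 to 0.287 with 1 array left out, -0.066 with scan as a fixed block or within the second scan, -0.042 as a random block). The causes were not tested, save that the first pair of genes rest on marked spots. Strain and scan cannot be told apart for Dahl S, and dim probes on SHR 3 are limited by its floor.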
